A study of Homo sapiens with 4 samples.

Results

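The transcripts described are those of 6 genes of the microRNA pathway, DROSHA, DICER1, AGO2, TNRC6A, TNRC6B and MIR17HG, in human fibroblasts after 5 Gy of X-rays and without irradiation. HuR, the product of ELAVL1, recognises U-rich and AU-rich stretches of RNA, mostly in 3′ untranslated regions and introns. RNA recovered with HuR from the skin fibroblast line WS1 was sequenced (RIP-seq) at 5 Gy and at 0 Gy, beside a library from control immunoglobulin (IgG) at each dose. This gave 4 libraries, 1 per group, and the study asked how irradiation affects the RNAs bound by HuR. A peak was assigned to a gene if it overlapped the hg19 span of that gene by at least 1 bp. That rule gave 46 peaks at 5 Gy, out of 36216, and 72 at 0 Gy, out of 47930. Peaks had been called per dose on the HuR library against its IgG library, so a peak marks RNA enriched with HuR and neither an expression level nor a single binding site.

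There were no replicate cultures, so the doses were not compared by a test and every difference below is between 2 lists. Read depth is unknown from peak lists, and the time after irradiation is not given in the sources used here. Expression libraries were not analysed here, so the amount of a transcript and its recovery with HuR cannot be told apart. Intervals of shares are Wilson 95% intervals in which peaks count as independent, and they cover counting error alone. The score of each peak is the authors' own. It starts at about 60 in both lists and was not scaled between the doses. In 17346 pairs of peaks that lay only against each other and scored under 3000, the median ratio of the 5 Gy score to the 0 Gy score was 0.80. Markers of fibroblasts and of other cell types were not analysed here, because no hg19 annotation was at hand.

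MicroRNAs are cut from long primary transcripts in the nucleus by DROSHA and then from hairpin precursors in the cytoplasm by DICER1, both RNase III enzymes. The short product is loaded into an Argonaute protein such as AGO2, which pairs with target mRNAs chiefly through the seed of the microRNA. TNRC6A and TNRC6B, the GW182 proteins, bind Argonaute and recruit the deadenylation machinery that silences the target. MIR17HG is a host transcript, whose hairpins yield a cluster of microRNAs known for promoting proliferation and as targets of MYC. HuR itself is known to work both with and against microRNAs at shared 3′ untranslated regions.

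MIR17HG is the member whose product is the microRNAs themselves, so the mature strands of its cluster are shown, 1 from each hairpin, in the order in which they lie in the transcript. The sequences are from RefSeq (build GRCh38.p14, plus strand), the hairpins lie at chr13:91350605-91351391 of that build, and the seed (bases 2 to 8) is in capitals.
hsa-miR-17-5p: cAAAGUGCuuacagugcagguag
hsa-miR-18a-5p: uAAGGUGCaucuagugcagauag
hsa-miR-19a-3p: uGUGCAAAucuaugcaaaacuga
hsa-miR-20a-5p: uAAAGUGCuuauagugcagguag
hsa-miR-19b-3p: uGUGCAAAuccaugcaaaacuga
hsa-miR-92a-3p: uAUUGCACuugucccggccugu
The 6 strands carry 4 different seeds. The seed AAAGUGC is shared by hsa-miR-17-5p and hsa-miR-20a-5p, and GUGCAAA by hsa-miR-19a-3p and hsa-miR-19b-3p. The seeds AAGGUGC and AUUGCAC each occur in 1 strand of the cluster. Mature microRNAs were not measured in these libraries, and the hairpins were not placed on hg19, so it is not stated which peak holds them.

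Over the 6 loci, peaks covered 51.9 kb at 5 Gy, against 58.3 kb at 0 Gy (89.0%), and the lists in full gave 91.7%. That value rested on TNRC6A: the other 5 loci together had 115% of their 0 Gy covered length at 5 Gy. Covered length was lower at 5 Gy in TNRC6A and TNRC6B, higher in DICER1, AGO2 and MIR17HG, and nearly the same in DROSHA. In number, the 46 peaks at 5 Gy came to 63.9% of the 72 at 0 Gy (95% interval 44.2 to 92.3), beside 75.6% for the lists in full. Peaks at the 6 loci averaged 1331 bp in length at 5 Gy and 879 bp at 0 Gy, and those of the lists in full 958 bp at 5 Gy and 790 bp at 0 Gy. Of the 46 peaks at 5 Gy, 1 of 9313 bp in AGO2 and 1 of 6307 bp in MIR17HG entered the first of these means.

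Of the 46 peaks at 5 Gy, 36 overlapped a peak at 0 Gy (78.3%, 95% interval 64.4 to 87.7), beside 73.0% of all 5 Gy peaks. Of the 72 peaks at 0 Gy, 38 overlapped a peak at 5 Gy (52.8%, 95% interval 41.4 to 63.9), beside 58.1% of all 0 Gy peaks. Both shares were thus near those of the whole lists. The 6 loci differed among themselves, and TNRC6A held 24 of the 34 unmatched 0 Gy peaks.

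**Figure D1:**
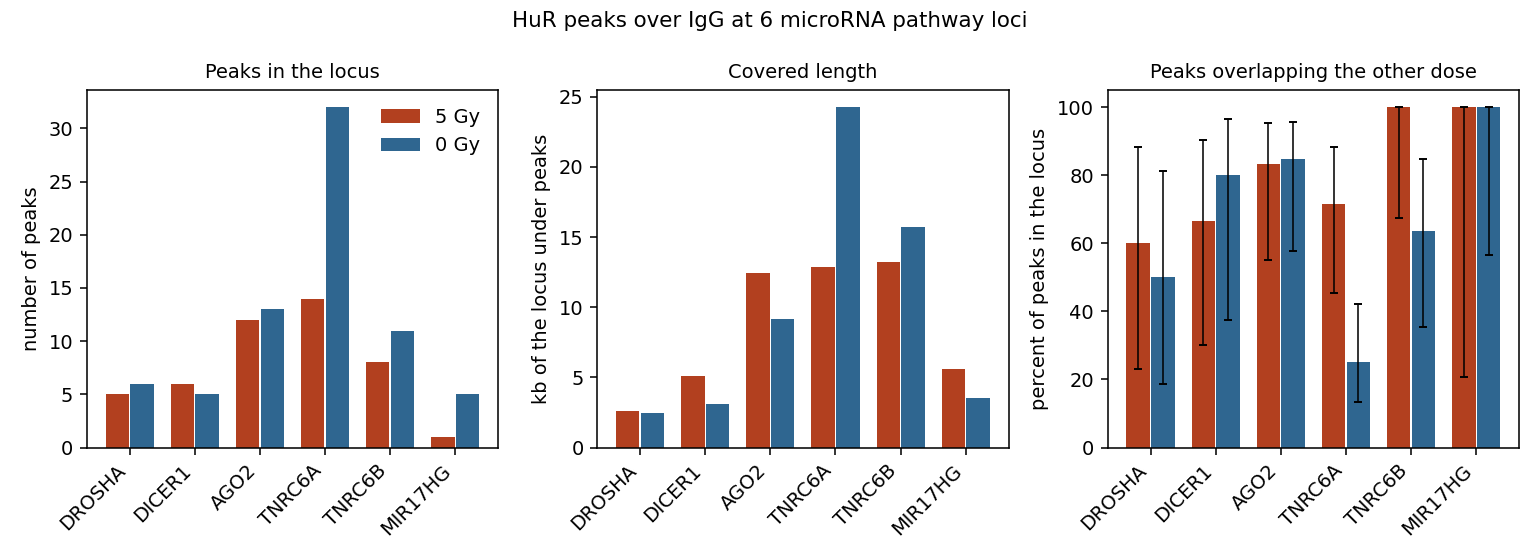
Number of peaks, covered length in kb and percent of peaks overlapping the other dose (bars, with Wilson 95% intervals in the third panel) at each of the 6 loci at 5 Gy and 0 Gy, 1 HuR library each. TNRC6A stands out with 14 peaks at 5 Gy against 32 at 0 Gy, while DICER1, AGO2 and MIR17HG were covered over a greater length at 5 Gy.

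DROSHA, the nuclear enzyme that releases hairpins from primary transcripts, was the least covered of the 6 genes. Its locus (chr5:31400601-31532282, minus strand, 131682 bp) had 5 peaks at 5 Gy and 6 at 0 Gy, covering 2.0% of the locus at 5 Gy and 1.9% at 0 Gy. The covered length at 5 Gy was 107% of that at 0 Gy, but 70.6% when scores of at least 100 were required. No peak of either list lay in the last 15 kb before the 3′ end. The highest-scoring and longest peak was at the same place at both doses, chr5:31504778-31505592 at 5 Gy with a score of 201.89 and chr5:31504920-31505736 at 0 Gy with a score of 199.86. It lay in the 5′ part of the gene, 104.6 kb before the 3′ end at 5 Gy.

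The other DROSHA peaks scored between 73.41 and 95.79 at 5 Gy and between 66.75 and 100.41 at 0 Gy, close to the minimum of the lists. Of them, 2 at each dose lay against each other and the rest were unmatched. The peak nearest the 3′ end was the matched one at chr5:31422342-31422895, with 554 bp and a score of 95.79 at 5 Gy, against 280 bp and 67.65 at 0 Gy. The unmatched peaks were 2 at 5 Gy and 3 at 0 Gy, and the farthest from the other list lay 16.1 kb away at 5 Gy and 16.5 kb away at 0 Gy. Just outside the 5′ end, a stronger peak began 91 bp beyond the locus at 5 Gy (score 522.63) and 94 bp beyond it at 0 Gy (score 406.80). The neighbouring gene on that side in RefSeq is C5orf22, and the lists hold no strand.

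DICER1, the enzyme that cuts hairpin precursors into mature duplexes, was covered over a greater length at 5 Gy, but with lower scores. Its locus (chr14:95552565-95624347, minus strand, 71783 bp) had 6 peaks covering 5.10 kb at 5 Gy and 5 peaks covering 3.13 kb at 0 Gy, or 163%. Among 5715 regions formed by joining peaks of both lists within 10 kb, with peaks at both doses and at least 2 kb covered at one, 8.38% had at least 1.5 times the covered length at 5 Gy. The DICER1 region next to the 3′ end was one of them, with a ratio of 1.505, at the border of that class. The highest score was 311.49 at 5 Gy, against 511.46 at 0 Gy.

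Peaks of DICER1 were gathered at its 3′ end at both doses. The last 5 kb held 77.4% of the bases under peaks at 5 Gy, against 91.1% at 0 Gy, and at 0 Gy no peak lay farther than 10 kb from the 3′ end. The last 5 kb were covered to 79.0% at 5 Gy and to 57.1% at 0 Gy. At 5 Gy the peaks in these 5 kb scored 164.54, 106.51, 311.49 and 189.55, read from the 3′ end inwards. At 0 Gy those peaks scored 511.46, 403.83, 116.91 and 198.84. The pair of peaks nearest the 3′ end was therefore the stronger one at 0 Gy, while at 5 Gy the highest score lay in the third peak.

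The DICER1 peak boundaries were shifted between the doses, so that no peak lay against only 1 partner in both directions. The 0 Gy peak at the 3′ end, chr14:95552565-95553686, lay against 2 peaks at 5 Gy, chr14:95552521-95553134 and chr14:95553144-95553799, which are 9 bp apart. The longest 5 Gy peak, chr14:95553816-95555417 (1602 bp), overlapped the second 0 Gy peak and ran on past its end, and the next 5 Gy peak (1124 bp) bridged a gap of 640 bp between 2 peaks at 0 Gy. Farther from the 3′ end, peaks at 5 Gy alone lay at chr14:95562182-95562901 (score 122.17) and chr14:95590543-95590974 (score 77.40). A 0 Gy peak at chr14:95560195-95560474 (score 94.22) had no match at 5 Gy.

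AGO2, the Argonaute protein with slicing activity, had nearly the same number of peaks at both doses, and most of them matched. Its locus (chr8:141541264-141645718, minus strand, 104455 bp) had 12 peaks covering 12.4 kb at 5 Gy and 13 peaks covering 9.19 kb at 0 Gy. Of these, 10 of 12 at 5 Gy overlapped the other list (83.3%, 95% interval 55.2 to 95.3), beside 73.0% of all 5 Gy peaks. At 0 Gy 11 of 13 did (84.6%, 95% interval 57.8 to 95.7), beside 58.1% of all 0 Gy peaks. Both intervals include the share of the whole list. Among the peaks touching the locus, scores of the strongest were lower at 5 Gy. The highest was 675.52 at 5 Gy, above 82.9% of the peaks in its list, against 1401.01 at 0 Gy, above 90.3% of its list.

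Between 8 and 13 kb before the 3′ end of AGO2, a block of 3 peaks had nearly the same boundaries at both doses. Their scores were 675.52, 401.61 and 454.03 at 5 Gy, against 1057.58, 512.35 and 644.81 at 0 Gy. The ratios were 0.64, 0.78 and 0.70, beside a median ratio of 0.80 over all pairs, and 0.78 was close to that median. None was as low as 1/2, while 24.5% of all pairs were. Their lengths differed by under 4%, with length ratios of 1.03 to 1.04. The block thus kept its place between the lists and had lower scores at 5 Gy, as the median pair of the lists also had.

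At the 3′ end of AGO2 the peak ran out of the locus at both doses. At 5 Gy it was a single peak of 9313 bp, chr8:141532919-141542231, with a score of 282.59. At 0 Gy the same stretch held 3 peaks, and the one touching the locus, chr8:141536658-141542256 (5599 bp), scored 1401.01. The other 2 peaks at 0 Gy scored 79.18 and 907.11. Together the 3 covered 97.4% of the 5 Gy peak, so the RNA covered was nearly the same and the calls differed in how they were joined and in score. RefSeq gives AGO2 a length of 122158 bp on GRCh38, more than the locus used, and names CHRAC1 as the next gene on that side. Farther out, outside the locus, chr8:141530180-141532692 scored 1198.65 at 5 Gy and chr8:141530248-141532251 scored 1145.42 at 0 Gy. The lower highest score at 5 Gy thus holds for the locus as cut.

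Of the regions at the 6 loci with peaks at both doses, that at the 5′ end of AGO2 had the highest ratio of 5 Gy to 0 Gy covered length. The first 10 kb of the locus had 2.97 kb under peaks at 5 Gy and 0.533 kb at 0 Gy. The region had a ratio of 5.14, and it reached 2 kb of covered length at 5 Gy alone. The AGO2 region at the 3′ end, which runs beyond the locus, had a ratio of 1.05. The median over the 5715 regions was 0.975. At 5 Gy its peaks were chr8:141640019-141641086 (score 239.56), chr8:141642787-141643305 (68.93) and chr8:141643884-141645270 (252.54). At 0 Gy there were chr8:141644730-141645110 (score 92.08), which lay inside the last of these, and chr8:141645567-141645763 (137.25). The first 2 peaks at 5 Gy had no match, and neither did the second at 0 Gy, which was 0.30 kb from the nearest 5 Gy peak. RefSeq places 2 further genes, LOC107986982 and the long noncoding RNA ERICD, within the bounds of AGO2 on GRCh38, and the unstranded lists cannot tell them from AGO2. The same limit applies to other loci. RefSeq places MIR3173 and DICER1-AS1 in DICER1, LINC01567 in TNRC6A, and RPL7P52 and LOC124905121 in TNRC6B.

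**Figure D2:**
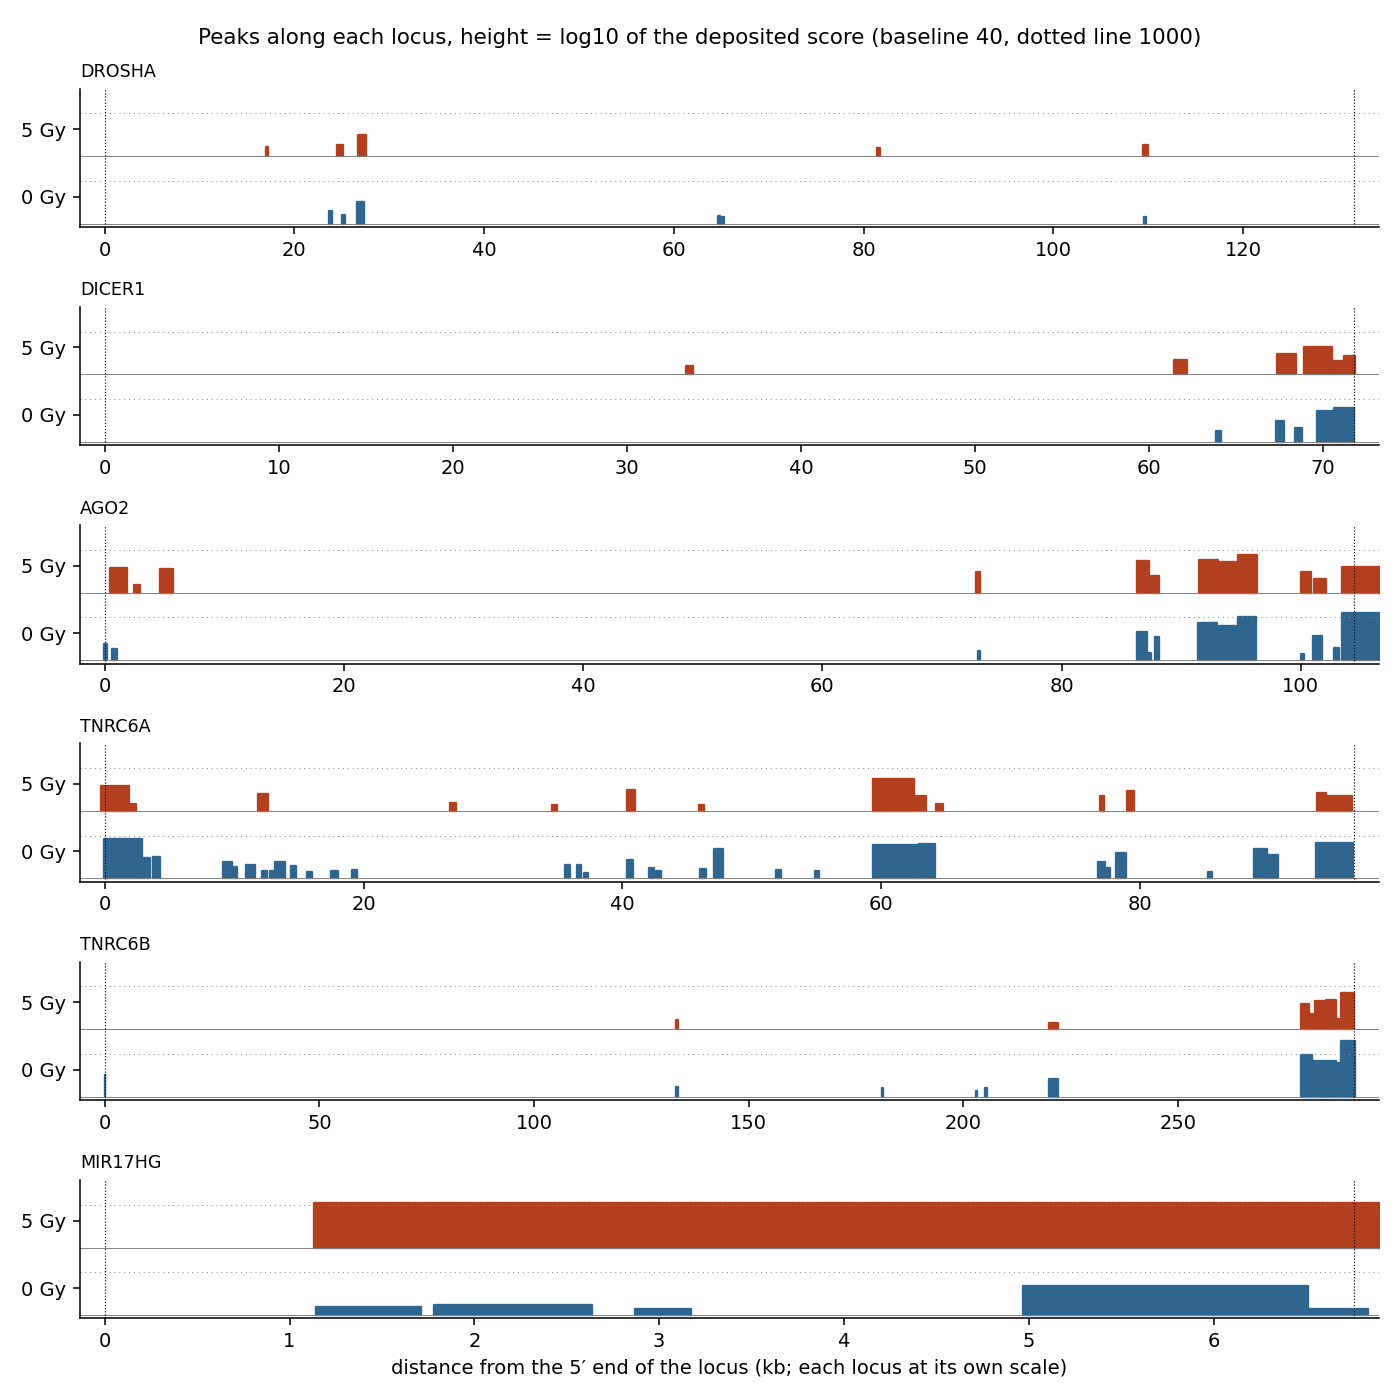
Peaks along the 6 loci from the 5′ end (0) to the 3′ end (second vertical line), in kb, with 5 Gy above 0 Gy and bar height giving the log10 of the score from a baseline of 40 (the dotted line marks 1000). Of the TNRC6A peaks at 0 Gy that scored under 150, 3 of 21 overlap a 5 Gy peak (14.3%), beside 35.0% of such peaks in the whole 0 Gy list. At 5 Gy AGO2 has added length at its 5′ end, and MIR17HG is covered by a single peak.

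TNRC6A, a GW182 scaffold that links Argonaute to deadenylation, had the densest peaks of the 5 protein-coding genes, with 14.5 per 100 kb at 5 Gy and 33.2 per 100 kb at 0 Gy. Its locus (chr16:24741016-24837547, plus strand, 96532 bp) had 14 peaks at 5 Gy, against 32 at 0 Gy (43.8%, 95% interval 23.6 to 81.2). Peaks covered 12.9 kb at 5 Gy and 24.3 kb at 0 Gy, or 13.3% of the locus at 5 Gy and 25.1% at 0 Gy. The interval of the peak ratio includes the 75.6% of the lists in full. RefSeq gives TNRC6A a length of 216014 bp on GRCh38, so the locus used does not hold the whole of that gene model.

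Of the 32 peaks at 0 Gy in TNRC6A, 8 overlapped a peak at 5 Gy (25.0%, 95% interval 13.3 to 42.1), a share below the 58.1% of all 0 Gy peaks. It was the lowest such share among the loci described. The interval treats as independent peaks that lie in the same locus, some of them adjoining. It therefore cannot test TNRC6A against the whole list. The share was also below that of the whole list at higher scores. Of the TNRC6A peaks at 0 Gy that scored 150 or more, 5 of 11 were matched (45.5%, 95% interval 21.3 to 72.0), beside 84.8% of such peaks in the whole 0 Gy list. Below that score 3 of 21 were matched (14.3%, 95% interval 4.98 to 34.6), beside 35.0% in the whole list. Of the 14 peaks at 5 Gy, 10 were matched (71.4%, 95% interval 45.4 to 88.3), close to the 73.0% of all 5 Gy peaks.

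The 24 unmatched 0 Gy peaks of TNRC6A scored from 61.67 to 370.89, with a median of 97.8, and had a summed length of 12.0 kb. Those of at least 150 were 6 in number. Next to the 5′ end were chr16:24743955-24744500 (192.87) and chr16:24744746-24745316 (205.92). In the middle of the gene lay chr16:24788058-24788825 (368.88), and farther on chr16:24819172-24819892 (274.82). Adjoining peaks at chr16:24829829-24830846 (370.89) and chr16:24830878-24831672 (230.46) lay 6 to 7 kb before the 3′ end, and the nearest 5 Gy peaks were 3.87 and 3.04 kb away. In all, 16 of the 24 were more than 1 kb from any 5 Gy peak and 8 were nearer.

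Of the 4 unmatched 5 Gy peaks of TNRC6A, only chr16:24820008-24820526 scored over 150, with 173.55. It lay 0.12 kb from the unmatched 0 Gy peak at chr16:24819172-24819892, so both doses had a peak in the same stretch without an overlap. The others scored 70.84, 63.88 and 68.20, just above the list minimum.

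The longest stretches of TNRC6A were present at both doses. The peak at the 5′ end was chr16:24740758-24742912 (2155 bp) with a score of 254.45 at 5 Gy, against chr16:24740983-24743873 (2891 bp) with 790.13 at 0 Gy. In the middle of the gene, chr16:24800384-24803561 scored 458.33 at 5 Gy and was the highest there, against 506.82 for chr16:24800388-24803925 at 0 Gy. The adjoining 0 Gy peak, chr16:24803949-24805148, scored 552.03, and the 5 Gy peak against it, chr16:24803607-24804451, scored 120.80. At the 3′ end, chr16:24834717-24835355 (154.26) and chr16:24835463-24837364 (119.98) at 5 Gy stood against a single peak of 2854 bp with 573.02 at 0 Gy. Among these long stretches, scores were thus lower at 5 Gy at both ends of TNRC6A and closer only in the first of the peaks in the middle. This does not hold for its shorter matched peaks. In the 4 TNRC6A pairs that lay only against each other, the 5 Gy score was lower in 2 and higher in 2, with a median ratio of 1.05.

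In the 2 regions that hold all TNRC6A peaks, covered length at 5 Gy was 0.55 and 0.52 of that at 0 Gy. Ratios of at most 1/1.5 were found in 15.6% of the 5715 regions. Lower ratios than those of TNRC6A were found in 9.501% and 8.24% of regions.

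TNRC6B, the second GW182 protein of the group, had peaks at 5 Gy only where there were 0 Gy peaks, most of them with lower scores at 5 Gy. Its locus (chr22:40440821-40731812, plus strand, 290992 bp) had 8 peaks covering 13.2 kb at 5 Gy and 11 peaks covering 15.7 kb at 0 Gy, or 83.9%. All 8 peaks at 5 Gy overlapped a 0 Gy peak (100%, 95% interval 67.6 to 100), beside 73.0% of all 5 Gy peaks. At 0 Gy 7 of 11 overlapped a 5 Gy peak (63.6%, 95% interval 35.4 to 84.8), beside 58.1% of all 0 Gy peaks. Both intervals include the share of the whole list. Bases covered at both doses made up 97.0% of the 5 Gy length and 81.4% of the 0 Gy length. The TNRC6B regions counted among the 5715 had covered length ratios of 0.90 and 0.86, beside a median of 0.975. Of these peaks, 6 of 8 at 5 Gy and 5 of 11 at 0 Gy lay in the last 15 kb before the 3′ end.

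The last 15 kb of TNRC6B held 82.1% of its covered bases at 5 Gy, against 75.3% at 0 Gy, and the last 5 kb were covered to 87.0% at 5 Gy and to 98.0% at 0 Gy. The peak at the very 3′ end, chr22:40728740-40731813 (3074 bp), scored 601.43 at 5 Gy, against 2574.76 for chr22:40728839-40732050 (3212 bp) at 0 Gy. That 0 Gy score was the highest at any of the 6 loci, above 93.8% of its list, while the 5 Gy peak was above 81.6% of its list. The next peaks inwards scored 88.72, 347.62, 341.15, 126.98 and 259.17 at 5 Gy, against 504.24, 600.67, 587.76 and 909.72 at 0 Gy. Each 5 Gy score in this block was below that of every 0 Gy peak it overlapped, apart from the last peak, which at 5 Gy also touched the 0 Gy peak of 504.24.

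**Figure D3:**
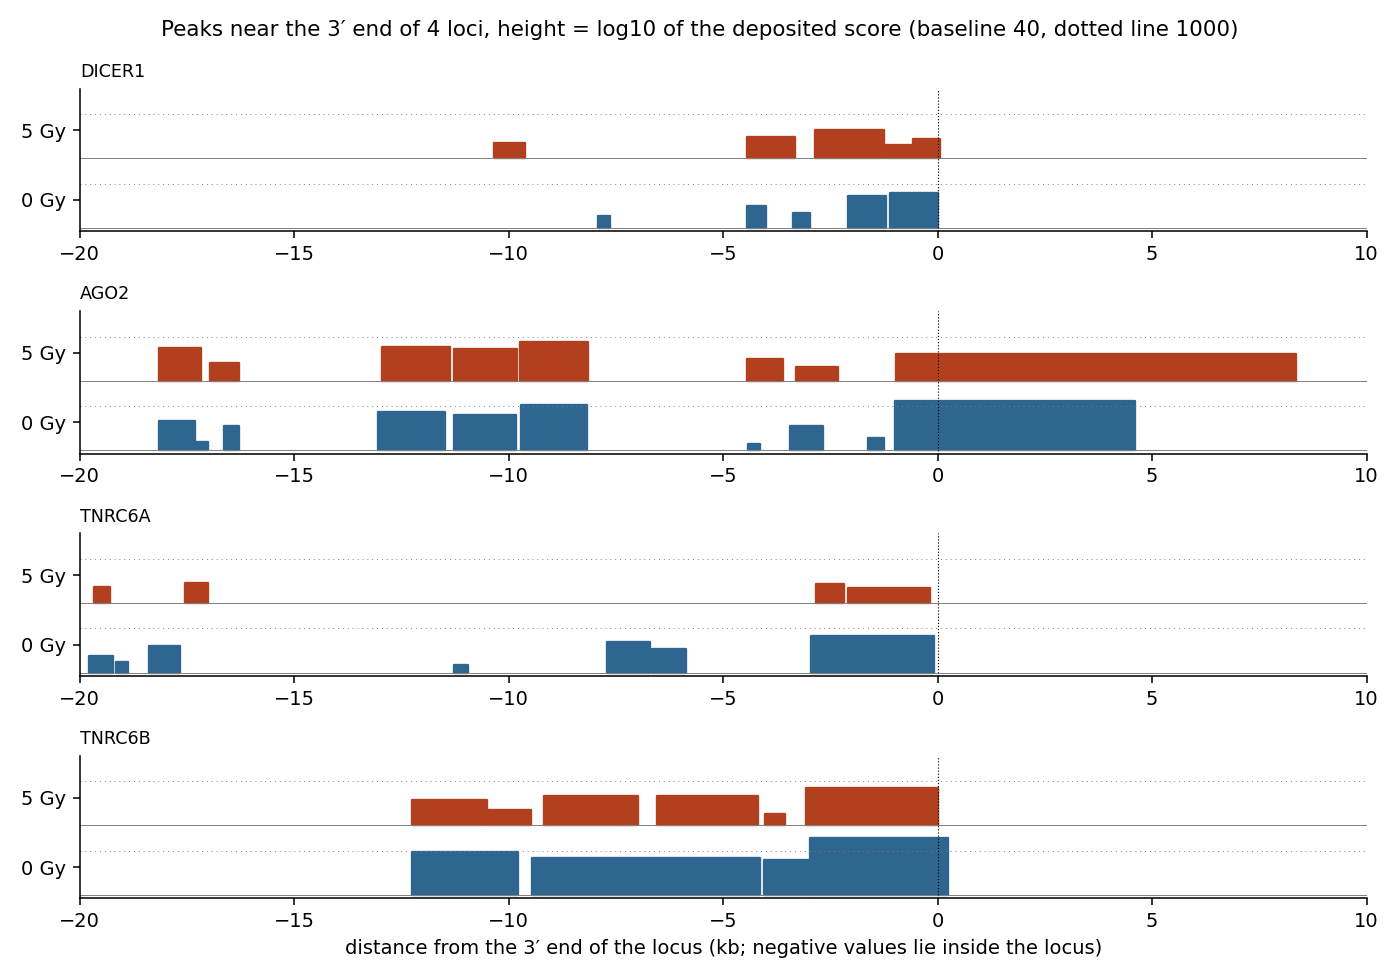
Peaks touching the loci of DICER1, AGO2, TNRC6A and TNRC6B, from 20 kb inside to 10 kb beyond the 3′ end (dotted vertical line). The 5 Gy peaks are above those at 0 Gy, and bar height gives the log10 of the score from a baseline of 40 (dotted line 1000). Peaks wholly outside a locus are not drawn. Among them are the AGO2 peaks of 79.18 and 907.11 at 0 Gy, which lie under the 5 Gy peak of 9313 bp. Peaks without a match in the other list are seen in DICER1, AGO2 and TNRC6A, among them the 0 Gy peaks of TNRC6A 6 to 7 kb inside. The peak at the 3′ end is lower at 5 Gy in each of the 4 genes drawn, with scores of 164.54, 282.59, 119.98 and 601.43 against 511.46, 1401.01, 573.02 and 2574.76 at 0 Gy. In none of the 4 did these peaks lie only against each other. For AGO2 the end is that of the locus as cut, and a peak farther out scored 1198.65 at 5 Gy against 1145.42 at 0 Gy. In DROSHA and MIR17HG, not drawn, the peak nearest the 3′ end scored higher at 5 Gy (95.79 against 67.65 and 1145.43 against 61.23).

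Away from the 3′ end, TNRC6B had isolated peaks. One of 1948 bp at 5 Gy, chr22:40660810-40662757, scored 66.02, against 148.80 for a peak of 2274 bp at 0 Gy. Another, chr22:40573942-40574350, scored 82.90 at 5 Gy and 81.92 at 0 Gy. The 4 unmatched 0 Gy peaks included a short one at the 5′ end, chr22:40440792-40440965 (174 bp, score 216.81), with the nearest 5 Gy peak 132.98 kb away. The other 3 scored 60.35 to 77.89. Beyond the 5′ end the neighbouring gene in RefSeq is TNRC6B-DT, and the lists hold no strand.

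MIR17HG, the host transcript of the cluster shown above, differed from the 5 protein-coding genes in that its highest score at 5 Gy was well above that at 0 Gy. Its locus (chr13:92000074-92006833, plus strand, 6760 bp) had 1 peak at 5 Gy, chr13:92001209-92007515, of 6307 bp with a score of 1145.43. At 0 Gy it had 5 peaks with scores of 72.62, 82.32, 63.47, 354.25 and 61.23 from the 5′ to the 3′ end. The single 5 Gy score was thus 3.23 times the highest of the 5 scores at 0 Gy. Peaks covered 83.2% of the locus at 5 Gy and 52.0% at 0 Gy, the highest share of the 6 loci at both doses. The covered length at 5 Gy was 160% of that at 0 Gy, and 365% when scores of at least 100 were required, which left 1 of the 5 peaks at 0 Gy.

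The 5 Gy peak of MIR17HG began 8 bp before the first 0 Gy peak, chr13:92001217-92001788, and spanned all 5 of them. The 0 Gy peaks added up to 3592 bp and covered 57.0% of it. The remaining 2715 bp were mostly a gap of 1799 bp before the strongest 0 Gy peak, chr13:92005044-92006585 (1542 bp), and an extension of 604 bp beyond the last 0 Gy peak, chr13:92006592-92006911. A 5 Gy peak that lay against at least 5 peaks at 0 Gy was found in 32 cases in the whole list (0.0884%). That cut equals the number seen at MIR17HG, which is among the 32, and 9.28% of the list lay against at least 2. Peaks of at least 5 kb made up 1.65% of all peaks at 5 Gy and 1.10% at 0 Gy. In its list the MIR17HG peak scored above 88.1% of peaks at 5 Gy, and the strongest 0 Gy peak above 75.1%. The region ratio of covered length was 1.76, and 94.1% of the 5715 regions had a lower one.

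**Figure D4:**
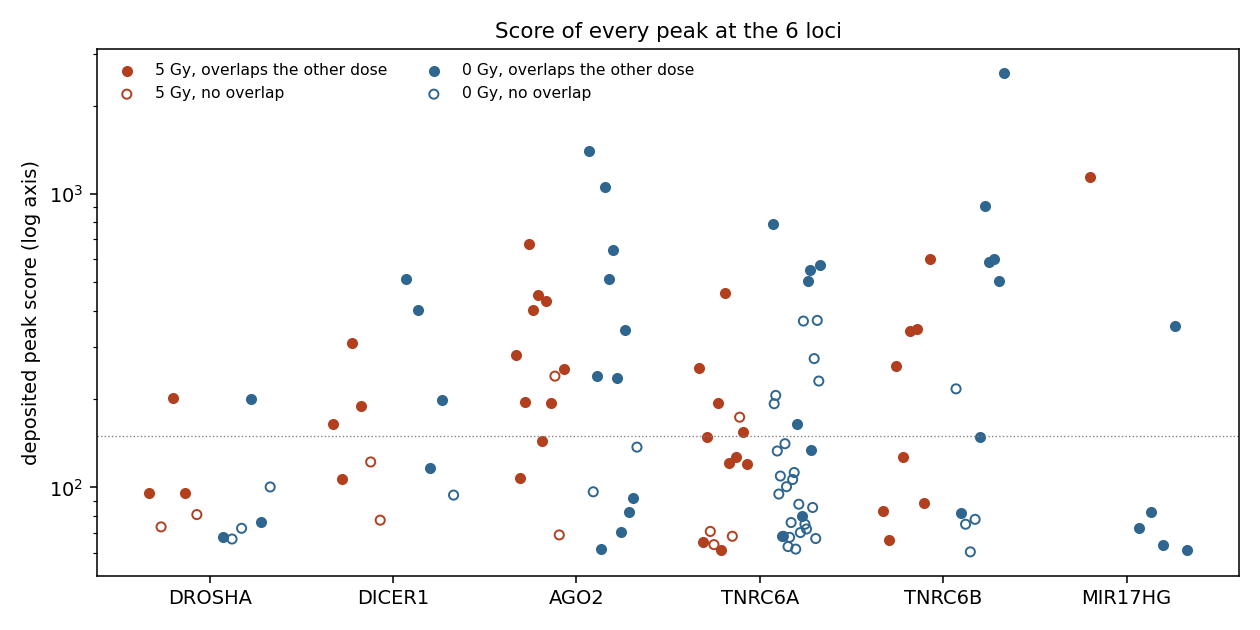
Score of every peak (log axis) at the 6 loci at 5 Gy and 0 Gy, filled where the peak overlaps a peak of the other dose and open where it does not; the dotted line marks a score of 150. The highest point is lower at 5 Gy in DICER1, AGO2, TNRC6A and TNRC6B, nearly level in DROSHA and higher in MIR17HG, and most open points are 0 Gy peaks of TNRC6A.

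Across the 6 loci, 19 pairs of peaks lay only against each other, 8 of them in AGO2, 4 each in TNRC6A and TNRC6B and 3 in DROSHA. The 5 Gy score was the lower in 10 pairs and the higher in 9, with a median ratio of 0.95. In 2 pairs it was at most 1/2 of the 0 Gy score, beside 24.5% of all such pairs, and in 4 pairs at least 2 times, beside 8.49% of all such pairs. Those lower were the AGO2 peak at chr8:141543588-141544576 (108.13 at 5 Gy against 240.30 at 0 Gy) and the TNRC6B peak of 66.02 against 148.80 given above.

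Those higher were mostly AGO2 peaks that were weak at 0 Gy. They were chr8:141544860-141545702 (195.67 at 5 Gy against 61.58 at 0 Gy), chr8:141572534-141572891 (193.69 against 82.27), the 5′ peak (252.54 against 92.08) and the TNRC6A peak at chr16:24752889-24753600 (148.26 against 68.49). These pairs leave out the peaks with several partners, among them all of DICER1 and MIR17HG and the 3′ peaks of AGO2, TNRC6A and TNRC6B. In both lists, 7 peaks at the 6 loci lay against at least 2 peaks of the other dose. That was 7 of 46 at 5 Gy, beside 9.28% of the whole list, and 7 of 72 at 0 Gy, beside 4.79%.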

How the data were processed

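The input was 2 deposited peak lists, with a chromosome, start, end, name and score per peak. The score is the authors' value as deposited. The submitters' processing notes name cutadapt 1.9.1, Bowtie2 2.2.4 and the build hg19, per the labels. Peak names begin with MACS, and the list names carry 1e-06, 10 and 30. No caller version or further setting is given in the sources used here. A score of 60 is −10 log10 of that p-value, so scores grow with depth, which is unknown.

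Starts were counted from 1. Spans were those of the 6 genes on hg19. Strands came from RefSeq, except that of AGO2, which is general knowledge. Covered length counts bases inside the span. Overlaps came from Python 3.11.15 (pandas 2.3.3, numpy 2.4.6, scipy 1.17.1) and were tested on simulated data. All peaks of a list formed the background. Peaks named singly were, per locus and list, the highest-scoring, the longest and that nearest the 3′ end, unmatched peaks of at least 150, pairs differing at least 2-fold in score, and the longest peak against several. Others were named after their values were seen. The members, lists and tests were chosen with earlier results of these data known. Other genes of the pathway and cell type markers were not analysed here for want of an hg19 annotation.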

Additional observations from a re-analysis of the deposited data

How the results depend on the processing

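Covered length at 5 Gy as a percentage of that at 0 Gy (89.0%) was 94.6% with scores of at least 100, 88.9% with peaks assigned by midpoint, 92.9% with loci widened by 10 kb and 87.8% with scores of at least the list median. Leaving out 1 locus, a choice made after seeing the data, gave 88.2% without DROSHA, 84.8% without DICER1, 80.3% without AGO2, 90.9% without TNRC6B and 84.5% without MIR17HG, and turned the direction without TNRC6A (115%). In DROSHA alone (107%) the direction turned with scores of at least 100 (70.6%). In MIR17HG alone it was 160%, and 365% at that minimum. The number of peaks at 5 Gy (63.9% of 0 Gy) ranged from 57.6% to 80.6%, inside its counting interval. With a reciprocal overlap of at least 50%, 54.3% of the peaks at 5 Gy and 34.7% of those at 0 Gy were shared. The whole lists were not counted under that rule, so these shares cannot be set against those of the whole lists given above. With an overlap of at least 1 bp, 75.0% of 0 Gy peaks were shared without TNRC6A. No paired analysis was possible because there was only 1 library per group. Unknown depth, the lack of strand and the single library per group limit every comparison between the doses.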
